A study of Mus musculus with 12 samples.

Results

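Mitochondrial DNA was represented in the heart libraries by 24 RNAs: 13 protein-coding RNAs, 2 ribosomal RNAs and 9 transfer RNAs. They are all genes of the deposited table whose mouse symbol begins with mt-, 24 of 26781 genes, and were chosen by symbol. The annotation used for positions, GENCODE M21 on GRCm38, holds 37 such genes. The other 13 are transfer RNA genes and were not analysed here.

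RNA was sequenced from hearts of C57BL/6J mice, an inbred laboratory strain shared by all groups. The 12 libraries fall into 4 groups of 3, labelled sham, MI, CIH and MI+CIH. MI is read here as myocardial infarction, CIH as chronic intermittent hypoxia (repeated drops in oxygen), MI+CIH as their combination and sham as the operated control. No engineered allele or added agent is named in the labels. They give neither age, sex, time after treatment nor region of the heart. They do not say whether each library came from its own animal, so p-values measure only the spread between these libraries, which may be technical.

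A mitochondrion carries many copies of a small circular DNA. Both strands are transcribed by a dedicated polymerase into long precursors, in which transfer RNAs punctuate the messenger and ribosomal RNAs and are cut out to release them. The messenger RNAs encode core subunits of the respiratory complexes and of the ATP synthase that power the beating heart, while every protein that transcribes, cuts and modifies these RNAs is made from nuclear genes.

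The values are FPKM, reads per kilobase of transcript and per M reads of the library, so they are relative to all other RNA in the same library. Library totals recovered from the steps between low values ran from 26.06 to 33.42 M reads. For a transfer RNA of 67 bases 1 read corresponds to 0.447 to 0.573 FPKM. For the label heart, the summed level of 10 cardiomyocyte markers was read, at 5942 to 19092 FPKM per library. Airway markers, of a tissue other than heart, summed to as much as 3262 FPKM, in MI+CIH library 2. Two-sided differences were tested with limma on log2(FPKM + 0.5) over 15503 genes that reached 0.5 FPKM in at least 3 libraries, at an adjusted p of 0.05. Of the members 22 entered this test, while mt-Atp8 and mt-Th did not reach the limit. In bulk tissue, fewer cells of a type and less RNA per cell cannot be told apart.

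A few libraries stood apart in these RNAs. The members took 9.83% to 10.2% of library reads in the sham libraries, and 6.70%, 7.57% and 9.90% in MI libraries 1, 2 and 3. They took 12.9%, 6.54% and 5.40% in CIH, and 12.8%, 7.43% and 5.21% in MI+CIH. The sham libraries lay close together, whereas library 1 of CIH and library 1 of MI+CIH lay above every sham library and the other libraries of their groups below. CIH library 1 was high through protein-coding RNAs and MI+CIH library 1 through ribosomal RNAs. Several results that rest on these libraries are given with and without them, and others with all libraries only.

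Of the 30373638 reads on the members in all libraries together, 86.1% fell on protein genes, 13.7% on ribosomal RNAs and 0.164% on transfer RNAs. The labels name a kit for small RNA libraries, and 6 of the 9 transfer RNAs in the table are encoded on the minus strand. The annotation holds 8 transfer RNA genes on the minus strand and 14 on the plus strand, of which 3 were in the table. Members made up 10 of the 18 genes with the highest mean FPKM, and mt-Co1 was the highest of all genes.

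The sequences below serve to read these levels. They are taken from the GENCODE M21 transcripts on GRCm38 and run 5′ to 3′. The first set shows why the levels of several protein genes are uncertain: nuclear chromosome 1 holds a copy of part of the mitochondrial DNA, at chr1:24611535-24616197 on the minus strand, annotated as 7 separate genes. Gm28438 differs from mt-Nd3 in 1 of its 345 aligned bases, T3C, with positions counted from 1 at the 5′ end of the mitochondrial gene. Capitals mark that base in windows of 60 bases, at chrM:9459-9518 (plus strand) and chr1:24613060-24613119 (minus strand).
mt-Nd3: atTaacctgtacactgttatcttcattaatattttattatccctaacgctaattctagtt
Gm28438: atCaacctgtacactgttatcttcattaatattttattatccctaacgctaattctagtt

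The windows of mt-Co2 (chrM:7043-7102, plus strand) and its copy Gm28661 (chr1:24615476-24615535, minus strand) had 0 differences, so that no read from within them can tell the genes apart.
mt-Co2: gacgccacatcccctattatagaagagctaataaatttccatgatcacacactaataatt
Gm28661: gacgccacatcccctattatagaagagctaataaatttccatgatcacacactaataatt

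For mt-Co1 another copy, Gm13340 on chromosome 2, matched over 1545 bases with 37 mismatches (97.6% identity). Within the window at chrM:6017-6076 (plus strand) and chr2:22588899-22588958 (minus strand) the differences are G696A, T699C, G717A and C720T, in capitals, and reads over them can be assigned.
mt-Co1: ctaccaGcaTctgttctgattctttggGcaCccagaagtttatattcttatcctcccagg
Gm13340: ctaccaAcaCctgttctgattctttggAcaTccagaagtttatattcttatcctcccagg

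The second set is the 3 transfer RNAs that passed a test below. mt-Tw (ENSMUSG00000064346, transfer RNA for tryptophan, chrM:4950-5016, plus strand) directly follows mt-Nd2 and shares 2 bases with it. mt-Tp (ENSMUSG00000064372, for proline, chrM:15356-15422, minus strand) lies next to mt-Tt on the other strand. mt-Ts1 (ENSMUSG00000064352, for serine, chrM:6870-6938, minus strand) shares its last 3 bases with the end of mt-Co1 on the other strand. Whether reads were counted by strand is not given in the sources used here. For genes on either strand, reads of an antisense precursor thus cannot be told apart from reads of the gene.
mt-Tw: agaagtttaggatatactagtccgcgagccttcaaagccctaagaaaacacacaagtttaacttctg
mt-Tp: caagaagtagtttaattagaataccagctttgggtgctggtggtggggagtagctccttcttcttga
mt-Ts1: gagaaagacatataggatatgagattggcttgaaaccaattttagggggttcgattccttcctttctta

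The third set shows where members overlap each other. The end of mt-Atp8 and the start of mt-Atp6 share 43 bases (chrM:7912-7984, plus strand, shared bases in capitals). The ends of mt-Nd5 (chrM:13532-13565, plus strand) and mt-Nd6 (chrM:13552-13585, minus strand) share 14 bases as reverse complements, in capitals.
mt-Atp8 end and mt-Atp6 start: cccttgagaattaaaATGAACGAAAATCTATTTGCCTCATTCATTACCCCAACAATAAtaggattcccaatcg
mt-Nd5 end: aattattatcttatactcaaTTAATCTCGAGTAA
mt-Nd6 end: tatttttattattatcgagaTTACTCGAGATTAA

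The 13 protein genes fell into 2 sets by level. The 7 at a mean of 100 FPKM or more were mt-Co1 at a mean of 24023 FPKM over the 12 libraries, mt-Nd1 at 8615, mt-Cytb at 8270, mt-Nd5 at 5230, mt-Nd6 at 4642, mt-Nd4 at 3291 and mt-Nd2 at 3160. The other 6 were mt-Co2 at a mean of 33.3 FPKM, mt-Atp6 at 25.0, mt-Co3 at 24.0, mt-Nd4l at 6.50, mt-Nd3 at 3.32 and mt-Atp8 at 1.95. All 6 low genes lie side by side at chrM:7013-10173, and no abundant gene lies between them. Neighbours in the order of means that were close, such as mt-Nd1 and mt-Cytb or mt-Nd4 and mt-Nd2, overlapped in every group.

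The low set coincided with the chromosome 1 copy. Bases lying in an identical run of at least 50 bases in another annotated transcript made up 100% of mt-Co2, 99.6% of mt-Atp6, 99.9% of mt-Co3, 98.3% of mt-Nd3 and 99.0% of mt-Nd4l. mt-Atp8 had 0 such bases in annotated transcripts, although it lies between copied neighbours. Among the abundant genes the share was 74.9% for mt-Co1, 63.6% for mt-Nd4, 24.3% for mt-Nd5 and 17.2% for mt-Nd2, and 0 for mt-Nd1, mt-Nd6 and mt-Cytb. How reads that match both places were counted is not given in the sources used here, and FPKM of the low genes cannot be read as the level of their RNAs.

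The nuclear copies were listed at levels near those of the low mitochondrial genes. Gm28661 stood at a median of 1.60 times the FPKM of mt-Co2 (range 0.564 to 2.18) and was higher in 11 of 12 libraries. Gm28437 stood at a median of 1.94 times mt-Co3 and Gm10222 at 3.41 times mt-Nd4l, each higher in 12 of 12. For mt-Atp6 the median ratio of Gm10925 was 1.67, and for mt-Nd3 that of Gm28438 was 3.22. By contrast, Gm28439 stood at a median of 0.00809 times mt-Nd4 and Gm29216 at 0.00432 times mt-Co1, and both of these mitochondrial genes also have stretches outside the copy.

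**Figure D1:**
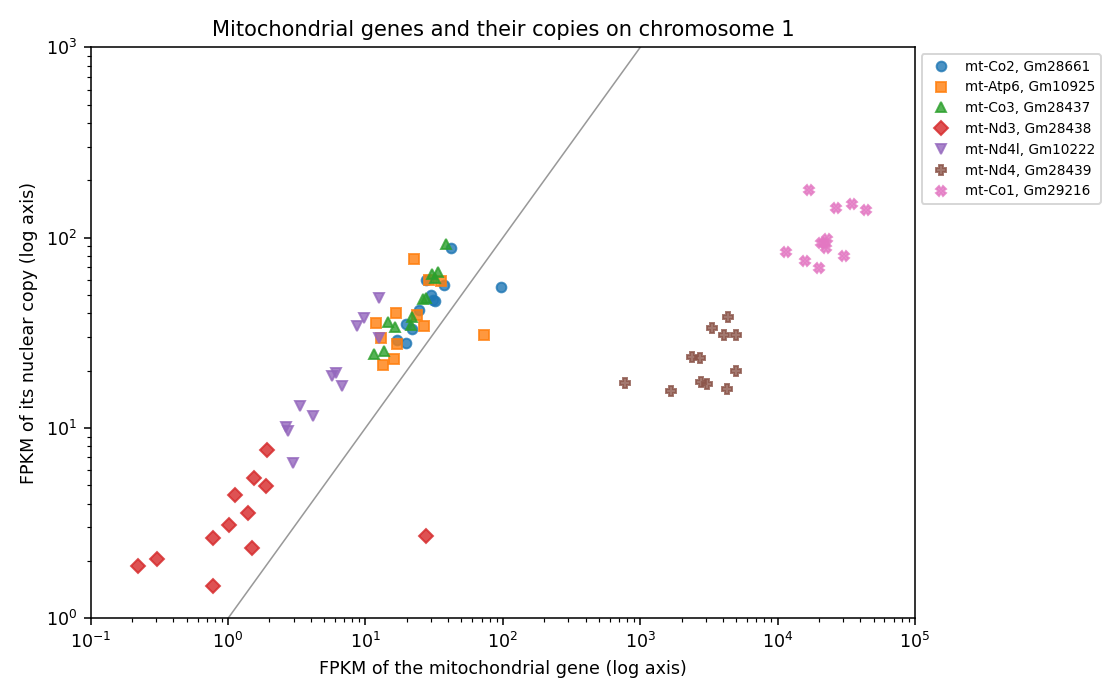
FPKM of each chromosome 1 copy (vertical, log axis) against that of its mitochondrial gene (horizontal, log axis), with 1 point per library and the grey line where both are equal. The 5 low genes follow their copies near or above the line, apart from single libraries such as MI+CIH library 3 for mt-Nd3 at 27.4 FPKM, while mt-Nd4 and mt-Co1 lie far below it.

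mt-Co1 encodes the catalytic core subunit of cytochrome c oxidase (complex IV) and lies at chrM:5328-6872 in a single exon. It was at 21839, 26822 and 34702 FPKM in sham libraries 1, 2 and 3, 19976, 22544 and 30437 in MI, 43901, 20874 and 17016 in CIH and 15937, 22738 and 11488 in MI+CIH. The groups overlapped, CIH spanned the widest range, and 2 of the 3 MI+CIH libraries lay below every other library. Against sham, MI+CIH differed by -0.76 on the log2 scale (SE 0.40, limma adjusted p = 0.209).

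mt-Cytb encodes cytochrome b, the mitochondrial subunit of complex III, at chrM:14145-15288. Its levels were 12310, 10876 and 9199 FPKM in sham, 6116, 6527 and 9032 in MI, 11085, 6062 and 4071 in CIH and 12187, 6090 and 5689 in MI+CIH. Every MI library lay below every sham library, while CIH and MI+CIH each had library 1 within the sham range and the others below it. The difference of MI from sham was -0.59 (SE 0.39, adjusted p = 0.494).

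Complex I, the entry point of electrons from NADH, takes 7 subunits from these genes. Of the abundant ones, mt-Nd1 (chrM:2751-3707) was at 12252, 11848 and 9049 FPKM in sham, 6094, 7161 and 9544 in MI, 10577, 6822 and 4578 in CIH and 12853, 7332 and 5267 in MI+CIH. mt-Nd2 (chrM:3914-4951) was at 3984, 4114 and 3184 in sham, 2654, 3117 and 4216 in MI, 3820, 1916 and 938 in CIH and 4846, 2693 and 2434 in MI+CIH. Both genes overlapped between all groups, and both were lowest in CIH library 3 and highest in MI+CIH library 1.

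mt-Nd4 (chrM:10167-11544) was at 5001, 5019 and 4098 FPKM in sham, 2779, 2706 and 3318 in MI, 4367, 1681 and 778 in CIH and 4291, 3080 and 2377 in MI+CIH. mt-Nd5 (chrM:11742-13565) was at 7832, 7948 and 5780 in sham, 4231, 4162 and 5165 in MI, 6597, 3077 and 1834 in CIH and 7568, 4422 and 4139 in MI+CIH. For both, all MI libraries lay below all sham libraries, and CIH split into library 1 at sham level and libraries 2 and 3 below MI. CIH differed from sham by -1.39 for mt-Nd4 (SE 0.49, adjusted p = 0.334) and by -1.09 for mt-Nd5 (SE 0.41, adjusted p = 0.358). Without CIH library 1 mt-Nd4 passed, at -2.03 and an adjusted p of 0.0372, and without CIH library 3 the difference was -0.79 (adjusted p = 0.678).

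mt-Nd6 (chrM:13552-14070) is the sole protein gene encoded on the minus strand. It was at 3302, 4964 and 5608 FPKM in sham, 3452, 4204 and 4916 in MI, 5931, 4735 and 8370 in CIH and 3099, 4875 and 2255 in MI+CIH. The library in which mt-Nd6 was highest of all 12, CIH library 3, was the one in which mt-Nd1, mt-Nd2, mt-Nd4, mt-Nd5 and mt-Cytb were each lowest. MI+CIH differed from CIH by -0.93 (SE 0.34, adjusted p = 0.0595), the lowest adjusted p of any abundant protein gene in any comparison. It passed with median-of-ratios scaling (-1.12, adjusted p = 0.0381), with voom on estimated reads (adjusted p = 0.0261) and without MI+CIH library 2 (-1.22, adjusted p = 0.0163). The difference kept its direction but was smaller without MI+CIH library 3 (-0.67, adjusted p = 0.191) or CIH library 3 (-0.71, adjusted p = 0.192). With the compared groups alone the adjusted p was 0.182.

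**Figure D2:**
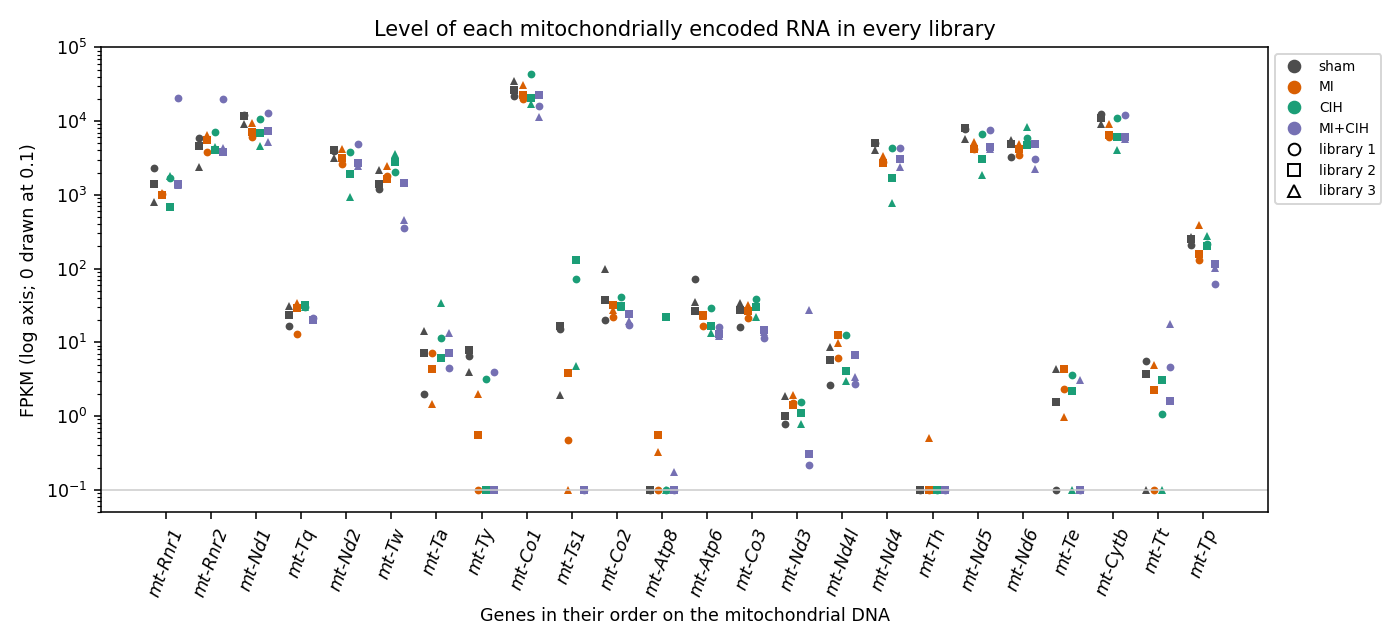
FPKM (log axis, values of 0 drawn at 0.1) of the 24 RNAs in their order on the mitochondrial DNA, with colour for the group and shape for the library number. The 7 abundant protein genes and both ribosomal RNAs lie at 689 FPKM or more in every library, with the 6 low protein genes in an unbroken block between mt-Ts1 and mt-Nd4.

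The low protein genes encode further subunits of complexes I and IV and the ATP synthase. mt-Co3 (ENSMUSG00000064358, chrM:8607-9390) was at 16.3, 27.7 and 33.9 FPKM in sham, 21.6, 26.2 and 32.1 in MI, 38.4, 30.5 and 21.8 in CIH and 11.5, 14.5 and 13.8 in MI+CIH. All 3 MI+CIH libraries were below the 9 others. mt-Atp6 (ENSMUSG00000064357, chrM:7927-8607) was at 73.4, 26.8 and 35.5 in sham, 16.9, 23.7 and 22.6 in MI, 29.2, 16.6 and 13.5 in CIH and 16.2, 13.0 and 12.0 in MI+CIH. Its sham libraries lay above those of MI and MI+CIH and overlapped with CIH.

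Other low genes owed their highest value to 1 library each. mt-Nd3 (chrM:9459-9806) was at 27.4 FPKM, from 267 reads, in MI+CIH library 3 and at 0.221 to 1.92 in the other libraries. mt-Atp8 (chrM:7766-7969) was at 22.3 FPKM, from 152 reads, in CIH library 2 and was listed at 0 in 8 libraries. mt-Co2 (chrM:7013-7696) reached 97.3 in sham library 3 against 17.1 to 41.8 elsewhere. mt-Nd4l (chrM:9877-10173) ranged from 2.62 to 12.6 FPKM without such a jump.

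Some protein RNAs kept a near-constant ratio and others did not. Of the 45 pairs among the 10 members with a mean of at least 1000 FPKM, 6 had a ratio whose highest value over the 12 libraries was less than 2 times its lowest. The steadiest was mt-Nd1 over mt-Cytb at 0.926 to 1.20. mt-Nd2, mt-Nd4 and mt-Nd5 also kept close to each other, with mt-Nd2 over mt-Nd5 at 0.509 to 0.816. All ratios here are of FPKM and share the library, so they are free of its scaling.

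mt-Nd6 departed from its neighbours. Its ratio to mt-Nd5 was 0.409 to 1.10 in 10 libraries, 1.54 in CIH library 2 and 4.56 in CIH library 3. It made up 22.2% of the summed FPKM of the protein genes in CIH library 3 and 4.96% to 10.5% in the other libraries. mt-Co1 made up 26.2% in MI+CIH library 1 and 50.8% in CIH library 1, the extremes. The ratio of mt-Co1 to mt-Nd4 was 21.9 in CIH library 3, 10.1 and 12.4 in the other CIH libraries and 3.71 to 9.17 in the remaining 9. Every CIH library was thus above every library of the other groups in this ratio. The pattern was seen in the values and was not tested.

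**Figure D3:**
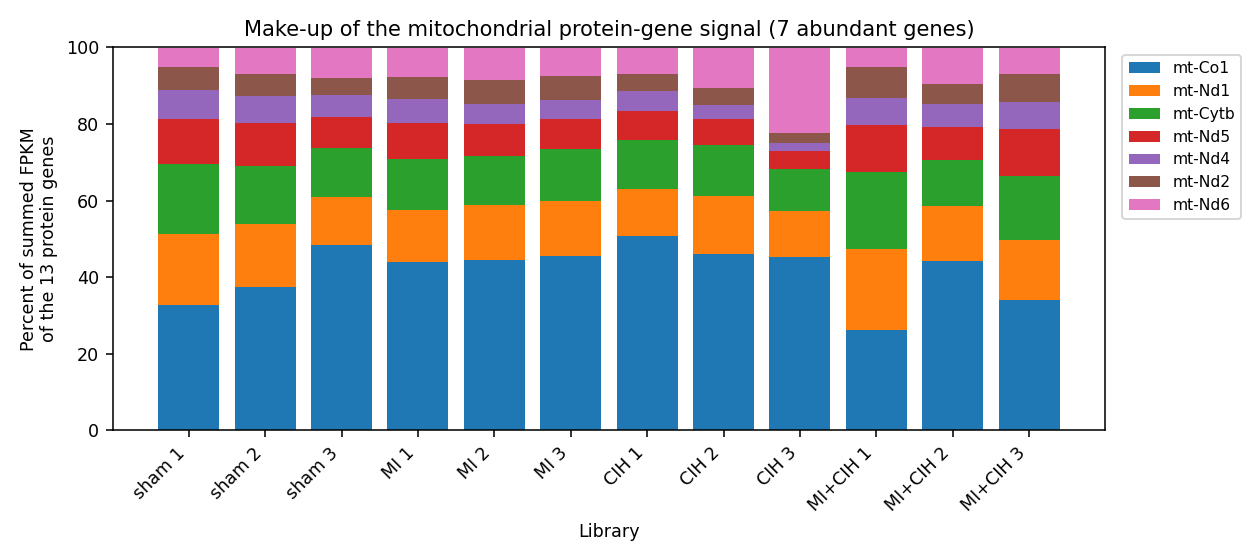
Share of each of the 7 abundant protein genes in the summed FPKM of the 13 protein genes (vertical, percent) for each library. CIH library 3 differs by its mt-Nd6 share of 22.2%, and MI+CIH library 1 by its mt-Co1 share of 26.2%.

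The ribosomal RNAs form the core of the mitochondrial ribosome, mt-Rnr1 (chrM:70-1024) in the small and mt-Rnr2 (chrM:1094-2675) in the large subunit. mt-Rnr1 was at 2296, 1419 and 797 FPKM in sham, 1030, 983 and 1057 in MI, 1667, 689 and 1790 in CIH and 20350, 1384 and 1359 in MI+CIH. mt-Rnr2 was at 5926, 4658 and 2357 in sham, 3802, 5472 and 6539 in MI, 7026, 4001 and 4393 in CIH and 19644, 3855 and 4338 in MI+CIH. MI+CIH library 1 held far more of both than any other library, and the others overlapped, except that all MI+CIH libraries lay above all MI libraries in mt-Rnr1. In MI+CIH library 1, 506516 and 809972 reads fell on these genes. The cause of this excess was not tested.

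The excess also changed the ratio between the ribosomal RNAs. mt-Rnr1 over mt-Rnr2 was 1.04 in MI+CIH library 1 and 0.162 to 0.407 in the other libraries. The summed ribosomal RNA took 5.05% of reads there and 0.449% to 1.27% elsewhere. Neither gene passed in any comparison, and for MI+CIH against MI the difference of mt-Rnr1 was 1.72 (SE 0.90, limma adjusted p = 0.332). mt-Rnr2 over mt-Nd1 was 0.260 to 0.484 in sham and 0.526 to 1.53 in the 9 other libraries, so sham did not overlap with the rest in this ratio, which was seen in the values and not tested.

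Transfer RNAs carry amino acids to the ribosome. The values count reads on their genes, and whether these came from cut-out transfer RNAs or from precursors was not tested. Over all libraries together, 43387 reads fell on mt-Tw, 4776 on mt-Tp and 524 on mt-Ts1. The summed FPKM of the transfer RNA genes was highest in CIH at 3176 ± 810 (SD, n = 3) and lowest in MI+CIH at 890 ± 625. It was 1881 ± 520 in sham and 2225 ± 601 in MI. Without MI+CIH library 2 the MI+CIH mean was 532 FPKM. Most of the sum was mt-Tw, the transfer RNA for tryptophan, which was at 1204, 1403 and 2140 FPKM in sham, 1783, 1620 and 2481 in MI, 2017, 2824 and 3628 in CIH and 357, 1461 and 454 in MI+CIH. These rest on 623 to 8061 reads per library. All MI+CIH libraries were below all CIH and all MI libraries, with MI+CIH library 2 nearest to them and within the sham range. CIH and MI overlapped with sham.

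mt-Tw did not follow mt-Nd2, the gene it directly abuts. The ratio of mt-Tw to mt-Nd2 was 3.87 in CIH library 3 and 0.0736 in MI+CIH library 1, and 0.302 to 0.672 in sham. It followed mt-Nd6 more closely, at a ratio of 0.115 to 0.596. The summed FPKM of 3 short nuclear noncoding RNAs, Rpph1, Rmrp and Rn7sk, was 36183 and 30121 in CIH libraries 2 and 3 and 10910 to 22079 in the other 10 libraries, with the lowest value in MI+CIH library 1. Its part in the transfer RNA levels was not tested.

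mt-Tp, for proline, was at 211, 255 and 267 FPKM in sham, 130, 158 and 390 in MI, 216, 202 and 277 in CIH and 61.3, 116 and 103 in MI+CIH, the group with the 3 lowest values. mt-Ts1, for serine, was at 15.2, 16.4 and 1.91 in sham, 0.471, 3.79 and 0 in MI, 72.1, 129 and 4.81 in CIH and listed at 0 in all 3 MI+CIH libraries. The CIH level of mt-Ts1 came mostly from libraries 1 and 2, with 140 and 298 reads. mt-Tq, for glutamine, ranged from 12.8 to 34.3 FPKM over all libraries.

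The remaining transfer RNAs were rare. mt-Ta (alanine) ranged from 1.45 to 34.1 FPKM on 3 to 78 reads. mt-Ty (tyrosine), mt-Te (glutamate) and mt-Tt (threonine) had at most 15, 9 and 33 reads in a library and were listed at 0 in 5, 4 and 3 libraries. mt-Th (histidine) had 1 read in all libraries together. None of mt-Ta, mt-Ty, mt-Te and mt-Tt passed with all libraries, and mt-Ty passed in MI+CIH against sham without MI+CIH library 1 (adjusted p = 0.0277).

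**Figure D4:**
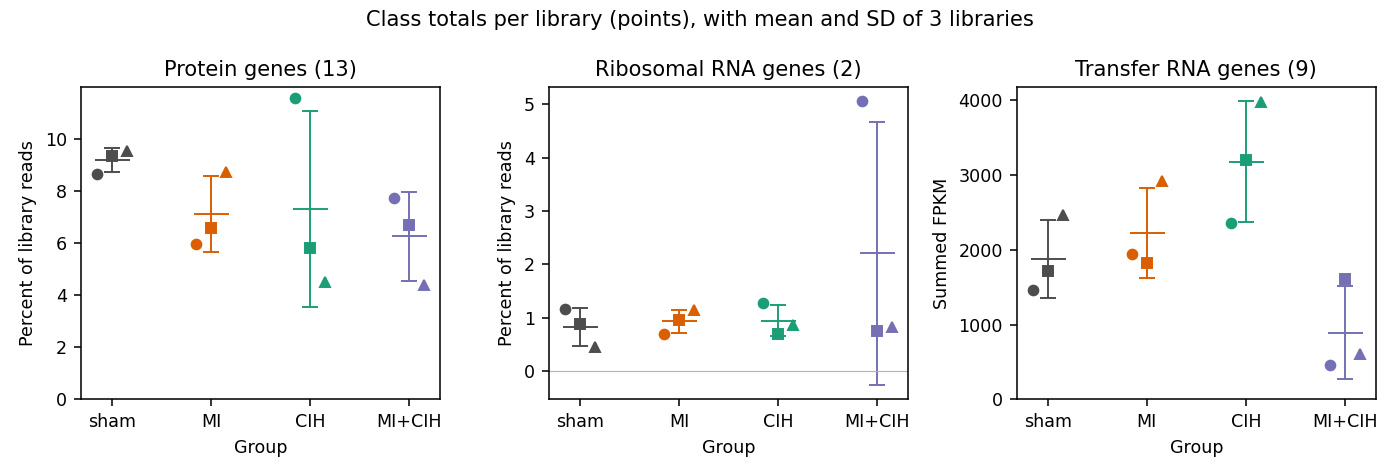
Class totals per library (points; shape gives the library number) with the mean and SD of 3 libraries per group, as percent of library reads for protein genes and ribosomal RNAs and as summed FPKM for transfer RNAs. The sham protein shares lie between 8.67% and 9.53%, ribosomal RNA stands out at 5.05% in MI+CIH library 1, and the transfer RNA means run from 890 FPKM in MI+CIH to 3176 FPKM in CIH.

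Infarction alone was addressed by comparing MI with sham. All 7 abundant protein genes were lower in MI, by -0.12 (mt-Nd6) to -0.68 (mt-Nd4) on the log2 scale, with none passing (adjusted p from 0.456 to 0.899). The 95% interval for mt-Nd4 ran from -1.75 to 0.38. Of the 22 members 0 passed, beside 1.96% of all genes tested. An unadjusted p under 0.05 was reached by 3 of the 22 members, beside 2562 of all 15503 genes tested. Groups did not overlap for mt-Nd4, mt-Nd5, mt-Cytb, mt-Atp6 and mt-Ty, all lower in MI, 5 of 22 members beside 11.7% of all genes. The median difference was -0.27 over the members and 0.06 over all genes. When the fit held sham and MI alone, mt-Nd4 passed with an adjusted p of 0.0404.

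Intermittent hypoxia alone was addressed by comparing CIH with sham. Of the 22 members 0 passed, beside 0.00645% of all genes. An unadjusted p under 0.05 was reached by 4 of the 22 members, beside 1836 of all 15503 genes tested. The differences of the abundant protein genes ran from -1.39 for mt-Nd4 to 0.45 for mt-Nd6, with 6 of 7 below 0. mt-Ty alone did not overlap (lower in CIH, beside 11.8% of all genes). The member median was -0.10, beside -0.07 over all genes.

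Intermittent hypoxia on top of infarction was addressed by comparing MI+CIH with MI. Again 0 of 22 members passed, beside 0.329% of all genes. An unadjusted p under 0.05 was reached by 3 of the 22 members, beside 2934 of all 15503 genes tested. mt-Tw differed by -1.64 (SE 0.47, adjusted p = 0.101), mt-Tp by -1.15 (SE 0.37, adjusted p = 0.132) and mt-Co3 by -0.97 (SE 0.27, adjusted p = 0.0965). These and mt-Atp6 did not overlap and were lower in MI+CIH, 4 of 22 beside 9.19% of all genes, and mt-Rnr1 did not overlap and was higher, beside 14.6%. The abundant protein genes lay between -0.57 and 0.20. Without MI+CIH library 2 mt-Tw passed, at -2.26 and an adjusted p of 0.00947, while it was at -1.24 (adjusted p = 0.221) without MI+CIH library 1 and at -1.42 (adjusted p = 0.255) without library 3. The interaction, which sets this difference against that of CIH from sham, also had 0 of 22 past the threshold, beside 0.0774% of all genes. It had 3 of 22 members at an unadjusted p under 0.05, beside 3294 of all 15503 genes tested. Its smallest adjusted p was that of mt-Tw (-2.48, SE 0.66, adjusted p = 0.0823), which passed without MI+CIH library 2 at -3.10 and an adjusted p of 0.0140 and was at -2.08 (adjusted p = 0.133) without library 1.

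Infarction on top of intermittent hypoxia, MI+CIH against CIH, gave the first calls. The 3 transfer RNAs shown above and 1 protein gene fell, 4 of 22 members (18.2%), beside 8.26% of all genes that fell and 28.2% that changed in either direction. mt-Tw fell by 2.15 on the log2 scale (SE 0.47, adjusted p = 0.00746), mt-Tp by 1.34 (SE 0.37, adjusted p = 0.0202) and mt-Co3 by 1.13 (SE 0.27, adjusted p = 0.0112). For mt-Ts1 the adjusted p was 0.00513, with no fold because MI+CIH is listed at 0. For 6 of 22 members the groups did not overlap, all lower (the 4 called, mt-Tq and mt-Co2), beside 10.3% of all genes. The copy of mt-Co3 on chromosome 1, Gm28437, fell by 1.11 (SE 0.34, adjusted p = 0.0310), so that the call cannot be placed on the mitochondrial gene. Gm28661, the copy of mt-Co2, differed by -0.86 (SE 0.30, limma adjusted p = 0.0489). The lower values of mt-Co2 thus cannot be placed on the mitochondrial gene either.

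The abundant protein genes showed no common direction in this comparison: mt-Nd4 differed by 0.82, mt-Nd2 by 0.74 and mt-Nd5 by 0.63, while mt-Nd6 differed by -0.93 and mt-Co1 by -0.64. The calls changed without CIH library 1, when 7 members passed, with mt-Nd4 (1.46, adjusted p = 0.0140), mt-Nd5 (1.12, adjusted p = 0.0314) and mt-Nd2 (1.24, adjusted p = 0.0359) higher in MI+CIH. Without CIH library 3 and MI+CIH library 1 together, these 3 differences were -0.00155, -0.0747 and -0.0795 and 2 members passed, with mt-Tw missing at -1.55 (adjusted p = 0.0735). mt-Tp lost its call without CIH library 3 (-1.21, adjusted p = 0.0707) or MI+CIH library 1 (-1.07, adjusted p = 0.0692). mt-Nd3 differed by 0.65 with all libraries and passed at -1.08 (adjusted p = 0.0278) without MI+CIH library 3.

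Against sham, MI+CIH had 4 of 22 members lower past the threshold (18.2%), beside 5.51% of all genes that fell and 16.8% that changed in either direction. mt-Atp6 fell by 1.56 (SE 0.35, adjusted p = 0.0154), mt-Tp by 1.43 (SE 0.37, adjusted p = 0.0243) and mt-Co3 by 0.89 (SE 0.27, adjusted p = 0.0439), and mt-Ts1 had an adjusted p of 0.0385. The same 4 did not overlap, beside 12.0% of all genes. Gm10925, the copy of mt-Atp6, differed by -0.44 (SE 0.43, adjusted p = 0.521). Gm28437, the copy of mt-Co3, differed by -0.75 (SE 0.34, adjusted p = 0.147). How reads shared with the copies were counted is not given, so neither call can be placed on the mitochondrial gene. All 7 abundant protein genes were lower, by -0.24 (mt-Nd2) to -0.76 (mt-Co1), and none passed.

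These calls were less stable. Leaving out 1 library at a time left 1 to 4 members past the threshold. mt-Atp6 passed in 11 of 12 such fits and missed it without MI+CIH library 3 (-1.47, adjusted p = 0.0571). mt-Tp missed without sham library 1, 2 or 3 (adjusted p = 0.0603, 0.0702 and 0.0685) and without MI+CIH library 1 or 3 (adjusted p = 0.0708 and 0.0551). mt-Ts1 passed in 6 of 12 and mt-Co3 in 3 of 12. mt-Nd3 passed at -1.13 (adjusted p = 0.0389) without MI+CIH library 3.

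Scaling mattered for the background of both comparisons with calls. Median-of-ratios scaling moved the median over all genes from 0.20 to 0.04 in MI+CIH against CIH and from 0.12 to 0.01 against sham. The share of higher among all calls went from 70.7% to 49.5% and from 67.2% to 49.4%, and from 69.7% to 59.4% in MI against sham. With this scaling 5 members fell against CIH beside 13.8% of all genes that fell, and 4 fell against sham beside 9.19%. The member median stayed below that of all genes. In MI+CIH against CIH it was -0.42 beside 0.20 as deposited and -0.60 beside 0.04 after scaling. Against sham it was -0.50 beside 0.12 and -0.63 beside 0.01. This median includes the low protein genes and transfer RNAs with few reads. The 7 abundant protein genes had a median of 0.21 against CIH and -0.48 against sham as deposited.

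**Figure D5:**
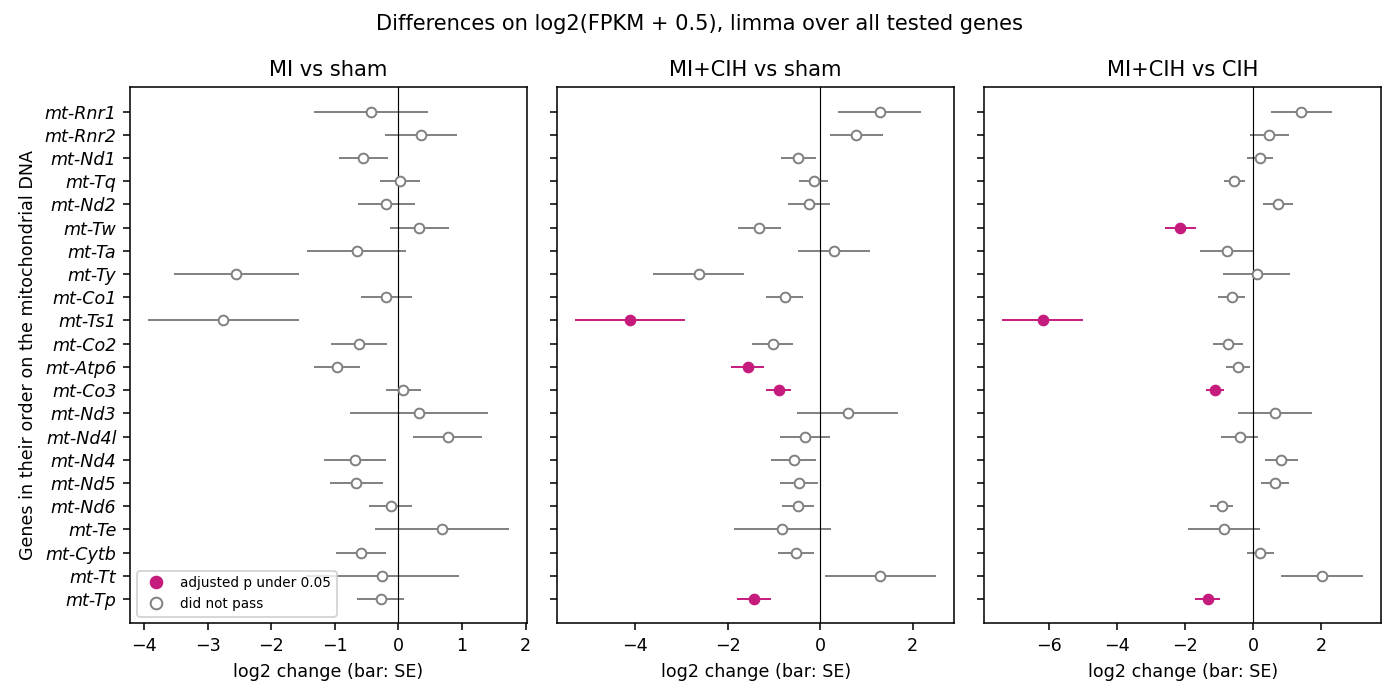
Log2 differences (horizontal, on log2(FPKM + 0.5), bars are SE) of the 22 tested members in their order on the mitochondrial DNA, for MI vs sham, MI+CIH vs sham and MI+CIH vs CIH. Filled points passed at an adjusted p of 0.05, 0 in the first panel and 4 in each of the others, and the point of mt-Ts1 in MI+CIH depends on the pseudocount because that group is listed at 0.

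Several sets of cell type markers moved with the MI+CIH group and some with MI. Cardiomyocyte markers (10 genes) summed to 5942 to 13363 FPKM in MI+CIH, 16534 to 19092 in CIH, 14452 to 15062 in MI and 15635 to 17909 in sham, and 7 of 10 fell against CIH and 4 against sham. All 6 fibroblast, 5 macrophage, 4 adipocyte and 4 airway markers rose against CIH, the fibroblast sum from 164 to 299 FPKM in CIH to 739 to 1575 in MI+CIH. The airway sum was 311 to 3262 FPKM in MI+CIH and 526 in sham library 2, and 0.0425 to 16.7 in the other 8 libraries. Atrial markers summed to 4298 to 5301 FPKM in MI+CIH, 351 to 2256 in CIH, 2479 to 4296 in MI and 1733 to 2861 in sham. Of these 1 of 5 rose against CIH and 0 against sham. Endothelial sums overlapped between all groups, with 1 of 4 markers lower against CIH and 0 called against sham. For skeletal muscle 1 of 4 markers rose against CIH and 1 against sham. Against sham, 5 of 6 fibroblast, 4 of 5 macrophage, 3 of 4 adipocyte and 4 of 4 airway markers rose in MI+CIH, and 4 of 5 red cell markers fell. In MI 5 of 6 fibroblast markers rose against sham, with sums of 477 to 797 FPKM beside 189 to 233, and 1 of 5 red cell markers fell, with sums of 134 to 157 FPKM beside 292 to 717. The part of these cell types in the mitochondrial differences was not tested.

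Nuclear genes that serve the mitochondrial RNAs were read from lists chosen by role. No member of any list passed outside MI+CIH against CIH and MI+CIH against sham. For transcription and upkeep of the DNA, 4 of 20 genes (20%) fell in MI+CIH against CIH, beside 8.26% of all genes, and 1 (5%) against sham, near the 5.51% of all genes, with 0 rising. They were Mterf2, a factor of the mitochondrial termination family (-1.08, adjusted p = 0.00789, and -0.84 against sham), Twnk, the replicative helicase (-0.65), Tefm, the elongation factor (-0.75), and Mgme1, an exonuclease of replication (-0.61).

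For processing, decay and stability, 7 of 22 tested genes (31.8%) fell in each of these comparisons and 0 rose, beside 8.26% and 5.51% of all genes that fell. Lrpprc, which binds and stabilises mitochondrial messenger RNAs, was at 24.0 ± 1.36 FPKM (SD, n = 3) in sham, 26.0 ± 2.35 in CIH and 14.5 ± 3.31 in MI+CIH, and fell by 0.84 against CIH (SE 0.16, adjusted p = 0.00399) and 0.73 against sham. Fastk, a mitochondrial form of which is known to be needed for mt-Nd6 RNA, fell by 1.25 (SE 0.19, adjusted p = 0.00193) and 1.04. Tbrg4, Fastkd1 and Ptcd3 also fell in both comparisons, Endog, a nuclease, against CIH (-1.14), and Supv3l1, the helicase of the degradation complex, against sham (-0.68). Only the 6 of 7 with the smallest p are named for each comparison. A gene named for a single comparison may therefore have passed in the other as well. The list median was -0.32 beside 0.20 over all genes against CIH, and -0.30 beside 0.12 against sham.

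Of the genes that modify transfer and ribosomal RNAs, 3 of 20 fell (15%) and 1 rose in MI+CIH against CIH, beside 8.26% of all genes that fell and 28.2% that changed in either direction. Osgepl1, which modifies an adenosine in transfer RNAs, fell by 0.48, Mrm3, a ribosomal RNA methyltransferase, by 0.66 and Gtpbp3, which modifies wobble uridine, by 0.49, while Trit1, which modifies transfer RNAs including mt-Tw, rose by 0.50 (SE 0.15, adjusted p = 0.0288). Against sham Osgepl1 alone passed, at -0.69, 1 of 20 (5%) beside 5.51% of all genes that fell.

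Genes for other mitochondrial parts, which do not act on RNA, also fell. In MI+CIH against CIH 14 of 17 fell (82.4%, beside 8.26% of all genes) and 0 rose, with a median of -0.66. Against sham 5 of 17 fell (29.4%, beside 5.51%), with a median of -0.42. Cs, citrate synthase, was at 156 ± 11.4 FPKM in CIH and 70.3 ± 19.5 in MI+CIH, a fall of 1.18 (SE 0.18, adjusted p = 0.00200). Slc25a3, the phosphate carrier, fell by 1.19 and Vdac1, a pore of the outer membrane, by 0.89, and Immt, Vdac3 and Timm23 fell by 0.76, 0.68 and 0.66. Against sham, Cs, Immt, Phb2, Slc25a3 and Tomm40 fell by 0.46 to 0.86. The abundant mitochondrially encoded protein RNAs, with a median of 0.21 against CIH and -0.48 against sham, had 0 of 7 past the threshold in the same fits, and the difference between these groups of genes was not tested.

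Spread within groups was larger for the members than for most genes. The residual SD on the log2 scale was 0.42 to 0.67 for the 7 abundant protein genes and 1.25 for mt-Rnr1, beside a median of 0.25 over all genes tested and of 0.37 over the 20 nuclear genes with a mean of at least 1000 FPKM. In CIH the highest library stood at 5.62 times the lowest for mt-Nd4, while in sham this ratio was 1.22.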

How the data were processed

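Values are FPKM, in 1 table of 26781 genes by 12 libraries deposited by the authors. The unit is read from the values. Per the submitters' processing notes HISAT, featureCounts 1.5.0-p3, DESeq 1.8.3 and mm10 were used, with no roles given. The table's columns match the sample descriptions, and 0 columns were left unmatched. Reads were estimated from FPKM, GENCODE M21 exon lengths and library totals found from the steps of low values: 89.7% of genes gave whole reads in all libraries within 0.1 reads. Intervals and floors from such reads cover counting error only.

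The model was limma-trend with robust variance (limma 3.58.1 and statmod 1.5.0 under R 4.3.3) on log2(FPKM + 0.5), all 12 libraries entering with a mean for each group. Genes at 0.5 FPKM in at least 3 libraries were tested, with Benjamini-Hochberg adjustment over all 15503 genes of a comparison. The script was tested on simulated data. Named genes are all protein and ribosomal RNA genes, transfer RNA genes that passed anywhere, the 4 with the highest mean FPKM and any at 0 in all libraries, up to 6 passing genes of each nuclear list by smallest p, and markers. The rarer transfer RNAs and the nuclear copies were added after values were seen. Members and lists were chosen with earlier results of these data known. Copies were found as identical runs of at least 50 bases in annotated transcripts. Alternatives covered filter, pseudocount, scaling, model, replicate block and left-out libraries.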

Additional observations from a re-analysis of the deposited data

How the results depend on the processing

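Over 23 settings, 124 of 137 counts of members past the threshold stayed within 1.5 times the main count, and 111 of 132 member differences passed in no setting. mt-Co3 in MI+CIH against CIH passed in all 23, mt-Ts1 in 22 (missing with voom, adjusted p = 0.0884), mt-Tw in 21 (missing with the compared groups alone, adjusted p = 0.0507, and without CIH library 3 and MI+CIH library 1 together, adjusted p = 0.0735) and mt-Tp in 19. Against sham mt-Atp6 passed in 22, mt-Tp in 16, mt-Ts1 in 13 and mt-Co3 in 9. Leaving out 1 library at a time gave 0 to 0 members in MI vs sham, 0 to 1 in CIH vs sham, 0 to 1 in MI+CIH vs MI, 3 to 7 in MI+CIH vs CIH, 1 to 4 in MI+CIH vs sham and 0 to 1 in the interaction. With the compared groups alone 1 member passed in MI vs sham, and with no filter 2 in MI+CIH vs sham. Without sham library 2 and MI+CIH library 3 together 1 passed in MI+CIH vs sham, and mt-Nd3 turned to -1.08 against CIH and -1.20 against sham. Without MI+CIH library 3 alone it turned to -1.08 and -1.13. Without CIH library 3 and MI+CIH library 1 together, a setting chosen after seeing the data, 2 passed in MI+CIH vs CIH, where mt-Nd2 turned to -0.0795, mt-Nd4 to -0.00155 and mt-Nd5 to -0.0747. The causes were not tested. With the replicate number as a block, 4 members passed in MI+CIH vs CIH, 3 in MI+CIH vs sham and 0 in the other comparisons. Deviations from the group means correlated at -0.175 to 0.128 between same-numbered libraries, and 3 of 18 pairs were over 0.1. The median was -0.015 for these pairs and 0.0057 for pairs of different number. Pairing by number was thus not seen, but with 3 libraries in a group this check cannot exclude it. The mean ribosomal RNA sum in MI+CIH went from 16980 to 5468 FPKM without MI+CIH library 1, and the transfer RNA sum from 890 to 532 without library 2. Depth limits the transfer RNAs with few reads, and no setting addresses reads shared with nuclear copies.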
